A study of Mus musculus with 12 samples.

Results

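The apical junction and polarity complex genes are 39 mouse genes, of 48709 gene identifiers counted, that were taken by symbol from a list of catenins, nectins, Par, Crumbs and Scribble complex members and Cdc42 effectors. They were measured by RNA sequencing of embryonic cortex from C57BL/6J mice at E15.5 (embryonic day). There were 4 control libraries, 4 libraries of a conditional knockout (cKO) of BAF155, and 4 libraries labelled as a conditional knockout of Pax6. BAF155, encoded by Smarcc1, belongs to the core of the chromatin remodelling complex BAF, and Pax6 is a transcription factor of cortical progenitors. The sources used here do not give the Cre driver, the targeted alleles or the genotype of the controls. Nothing in the labels says that the libraries came from separate embryos, so p-values measure only how much these libraries vary, and part of that variation may be technical.

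Radial glia, the progenitors that line the ventricle of the developing cortex, hold on to each other at their apical endfeet through adherens junctions. There cadherins are tied to actin by catenins, nectins are tied to it by afadin, and the Par and Crumbs complexes mark the apical membrane while the Scribble group marks the basolateral one. When a cell leaves the ventricular surface, as basal progenitors and newborn neurons do, it gives up this apical attachment. Many of the same genes also work in growing axons, dendrites and synapses, so their RNA in whole cortex comes from progenitors and neurons together. In such bulk samples, fewer cells of a type and less RNA per cell cannot be told apart.

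Libraries held 15155249 to 32047949 counted reads. Smarcc1 was 303.4 ± 68.7 CPM (counts scaled to a common library size; mean ± SD, n = 4) in controls, 127.3 ± 10.8 in the BAF155 cKO and 186 ± 6.71 in the libraries labelled Pax6 cKO, with log2 fold changes of -1.25 and -0.71 (adjusted p = 1.64e-05 and 0.00128). Pax6 went against its label: it was 110.2 ± 19.1 CPM in controls, 314.1 ± 40.3 in the BAF155 cKO and 388.8 ± 8.74 in the libraries labelled Pax6 cKO. Every direction given below for those libraries therefore describes the label and not a checked loss of Pax6. Judged from Xist and Y-linked genes, control replicates 1 and 2 were male and 3 and 4 female and so came from at least 2 embryos, the BAF155 cKO libraries were all female, and those labelled Pax6 cKO were all male. The sequencing lanes recorded in the library names were 8 for all controls, 1 and 3 for the BAF155 cKO and 1 for the other group, so lane and group cannot be told apart for the controls. Both comparisons with control use the same 4 controls and are not independent.

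All 39 genes passed the filter on low counts, which kept 16511 genes. In the BAF155 cKO, 10 of the 39 fell and 1 rose relative to control at an adjusted p under 0.05 (edgeR quasi-likelihood test), and 28 were not called. Those are 25.6% and 2.56% of the genes, where 7.56% of all genes tested fell and 6.04% rose. In the libraries labelled Pax6 cKO, 21 fell (53.8%), 2 rose (5.13%) and 16 were not called, where 18.9% of all genes fell and 16.6% rose. The median log2 fold change of the 39 was -0.277 in the BAF155 cKO and -0.35 in the libraries labelled Pax6 cKO, against 0.008 and 0.023 over all genes. The 39 genes were chosen with earlier results of these data known, so an excess over all genes is a description and not independent evidence.

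The genes that fell in the BAF155 cKO were Ctnna1, Ctnnd2, Nectin3, Vcl, Shroom3, Pard6b, Mpp5, Patj, Cdc42ep1 and Cdc42ep4, and Crb1 rose. In the libraries labelled Pax6 cKO the first 8 of these and Cdc42ep4 fell, with Ctnnb1, Ctnnd1, Afdn, Tjp1, Pard3, Pard3b, Pard6g, Prkci, Crb2, Llgl1, Cdc42bpa and Numbl, and Crb1 and Pard6a rose. Since the controls are shared, having genes in common does not count as separate support. A threshold passed in 1 comparison and missed in the other is not a difference between the knockouts. The direct contrast of BAF155 cKO with the libraries labelled Pax6 cKO called 1 member higher, Crb2, and 0 lower, where 2.3% of all genes were higher and 2.01% lower. The BAF155 cKO libraries were all female and the others all male, so sex and knockout cannot be told apart in this contrast. At an unadjusted p under 0.05, 2 members were lower in the direct contrast, Pard6a and Cdc42ep1, and 4 were higher, Pard3b, Cdc42bpa, Crb2 and Patj. The share of all genes at that unadjusted threshold is not given here. DESeq2 called 1 member lower and 3 higher, where it called 3.71% of all genes lower and 4.35% higher.

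**Figure D1:**
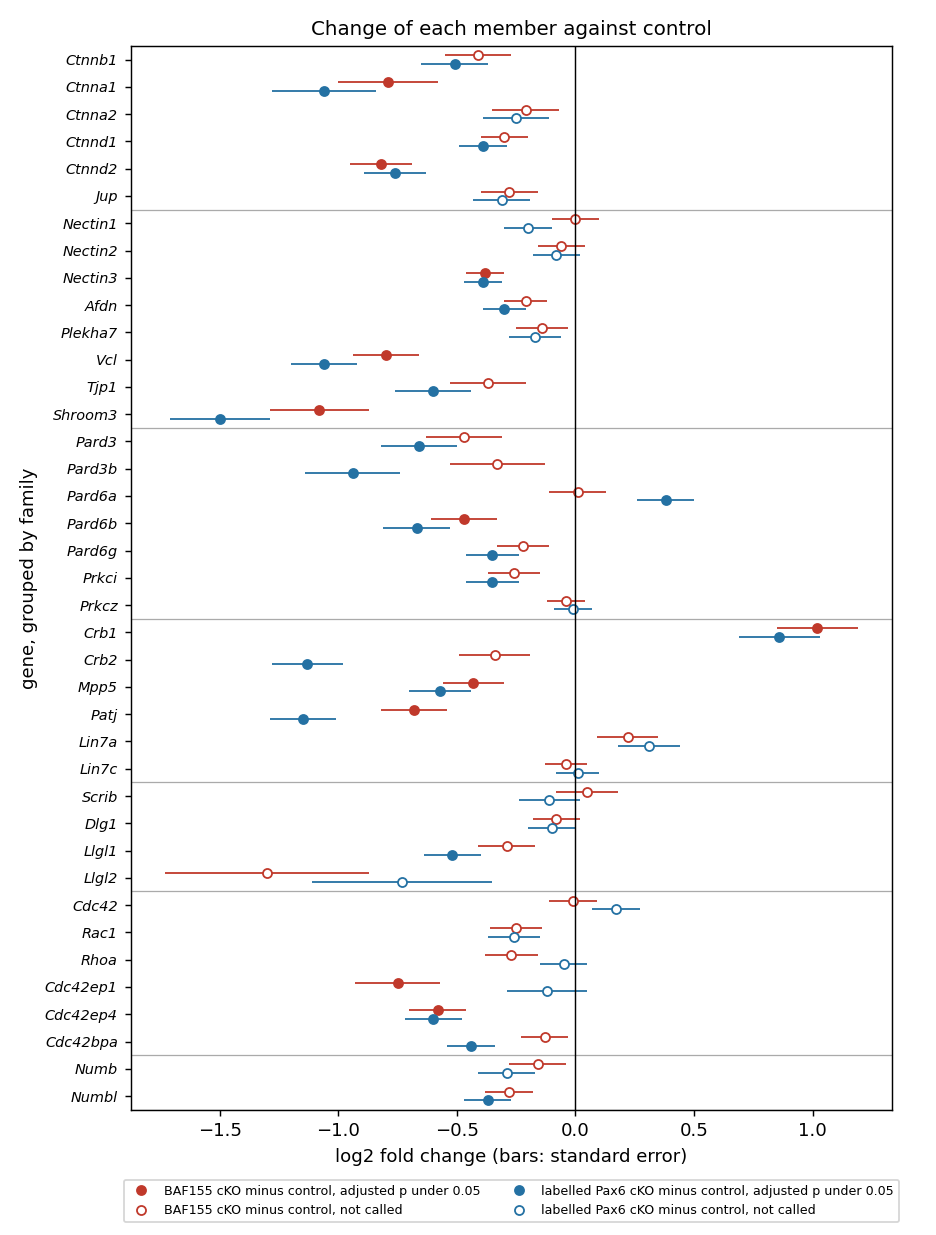
Log2 fold change of each of the 39 genes against control (points, with bars for the standard error), in the BAF155 cKO (red) and the libraries labelled Pax6 cKO (blue), with filled points at an adjusted p under 0.05. Most points lie left of 0, with 34 of 39 negative in each comparison, and Crb1 stands to the right in both.

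Among the 6 catenins, 2 fell in the BAF155 cKO and 4 in the libraries labelled Pax6 cKO, where 7.56% and 18.9% of all genes fell. With so few genes per family, this count and the family counts below are descriptions only. Ctnnd2 encodes δ-catenin, a brain-enriched relative of p120-catenin that binds the inner face of cadherins and also sits at synapses (ENSMUSG00000022240, mm10, chr15:30172593-31029341, plus strand). Its levels in control replicates 1 to 4 were 183.1, 191, 254.9 and 241.4 CPM. In the BAF155 cKO they were 129.4, 134.7, 136.4 and 91.8 CPM, and in the libraries labelled Pax6 cKO 125.5, 136.9, 123.6 and 127.6 CPM. Every knockout library lay below every control. Relative to control, Ctnnd2 fell by 0.82 on the log2 scale in the BAF155 cKO (SE 0.13, adjusted p = 0.000681) and by 0.76 in the other group (SE 0.13, adjusted p = 0.000665).

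The stretch of 200 bases before the RefSeq start of Ctnnd2 is shown because this gene fell in both comparisons under every setting run (GRCm38.p6, chr15:30172334-30172533, plus strand, 65.5% GC). Capitals mark the complement strand's match to CAGATG, an E-box letter string bound by proneural factors, which 11.6% of all 32851 RefSeq starts hold in the same window on either strand.
Ctnnd2: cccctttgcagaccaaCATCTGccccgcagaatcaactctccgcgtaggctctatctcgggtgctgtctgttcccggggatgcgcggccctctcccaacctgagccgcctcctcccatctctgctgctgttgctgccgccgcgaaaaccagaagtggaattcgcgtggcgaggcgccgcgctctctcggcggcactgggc

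Ctnna1 encodes αE-catenin, the link from β-catenin to actin in epithelial cells (ENSMUSG00000037815, chr18:35118859-35254779, plus strand). Controls 1 to 4 held 99.39, 139.6, 179.7 and 189 CPM, the BAF155 cKO 76.96, 130.7, 84.73 and 58.28, and those labelled Pax6 cKO 69.09, 74.39, 74.55 and 73.18. The last group lay below all controls, while BAF155 cKO replicate 2 lay inside the control range. It fell by 0.79 on the log2 scale in the BAF155 cKO (SE 0.21, adjusted p = 0.0282), a call lost without any 1 of 5 libraries (control 3 or 4, or replicate 1, 3 or 4 of the BAF155 cKO; adjusted p up to 0.0989), and by 1.06 in the other group (SE 0.22, adjusted p = 0.00263). Its neuronal counterpart Ctnna2, αN-catenin, was not called in either comparison (log2 fold changes -0.21 and -0.25, adjusted p = 0.275 and 0.156).

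Ctnnb1 encodes β-catenin, which joins cadherins to α-catenin and also carries the Wnt signal to the nucleus. It had the highest level per length of the 39, 306 ± 38.4 CPM per kb of exon in controls (n = 4). Controls 1 to 4 held 1358, 1485, 1773 and 1735 CPM, the BAF155 cKO 1011, 1566, 1257 and 947.6, and those labelled Pax6 cKO 1020, 1192, 1076 and 1163. BAF155 cKO replicate 2 again lay among the controls, and the groups overlapped (log2 fold change -0.41, SE 0.14, adjusted p = 0.0696). The libraries labelled Pax6 cKO lay below all controls (-0.51, SE 0.14, adjusted p = 0.0133). Ctnnd1, p120-catenin, which holds cadherins at the membrane, fell in the libraries labelled Pax6 cKO (log2 fold change -0.39, adjusted p = 0.00665; BAF155 cKO -0.30, adjusted p = 0.0528), and Jup, plakoglobin, was not called in either (-0.28 and -0.31).

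Of the 8 nectins and junction plaque genes, 3 fell in the BAF155 cKO and 5 in the libraries labelled Pax6 cKO. The shares of all genes that fell were 7.56% and 18.9%. Vcl encodes vinculin, which is recruited to α-catenin under tension (ENSMUSG00000021823, chr14:20929398-21033676, plus strand). Controls 1 to 4 held 15.53, 17.29, 22.58 and 20.25 CPM. The BAF155 cKO held 9.669, 11.64, 12.49 and 9.576 CPM, and those labelled Pax6 cKO 9.501, 9.872, 9.327 and 7.554 CPM. No knockout library reached the lowest control. Vcl fell by 0.80 on the log2 scale in the BAF155 cKO (SE 0.14, adjusted p = 0.00139) and by 1.06 in the other group (SE 0.14, adjusted p = 7.81e-05).

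The 200 bases before the RefSeq start of Vcl are shown because Vcl, like Ctnnd2, fell under every setting run (GRCm38.p6, chr14:20929198-20929397, plus strand, 67% GC). Nectin3 also fell under every setting in both comparisons, and its stretch is not shown. Capitals mark 4 matches to GGGCGG, the letters of a GC box, of which 2 overlap; 31% of all RefSeq starts hold at least 1 match in such a window, on either strand.
Vcl: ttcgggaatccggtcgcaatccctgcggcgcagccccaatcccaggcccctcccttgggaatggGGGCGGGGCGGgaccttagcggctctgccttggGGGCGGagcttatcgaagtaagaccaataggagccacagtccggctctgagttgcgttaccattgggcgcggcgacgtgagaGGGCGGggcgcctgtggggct

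Shroom3 encodes an actin-binding protein that acts at apical junctions and drives apical constriction (ENSMUSG00000029381, chr5:92683435-92965318, plus strand). Controls held 13.19, 17.62, 25.09 and 24.84 CPM, the BAF155 cKO 9.397, 12.78, 8.498 and 7.086, and those labelled Pax6 cKO 7.876, 7.231, 7.589 and 5.72. Neither knockout group overlapped the controls, although BAF155 cKO replicate 2 came close to control 1. The log2 fold changes were -1.08 (SE 0.21, adjusted p = 0.00333) and -1.5 (SE 0.21, adjusted p = 0.000146).

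Nectin3, an immunoglobulin-like adhesion molecule that binds nectins on the next cell (ENSMUSG00000022656, chr16:46387706-46498525, minus strand), fell in both comparisons. Controls held 67.69, 74.4, 71.7 and 73.9 CPM, the BAF155 cKO 55.18, 51.79, 56.7 and 57.65, and those labelled Pax6 cKO 52.77, 50.62, 54.5 and 61.22. All 8 knockout libraries were below all controls, and the 2 control pairs of different sex did not separate. The log2 fold changes were -0.38 (SE 0.08, adjusted p = 0.0051) and -0.39 (SE 0.08, adjusted p = 0.00187). Nectin1 and Nectin2, of the same adhesion family, were not called, with log2 fold changes between -0.2 and 0.

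Afdn, afadin, ties nectins to actin and had the highest control level per length of this family, 25.6 ± 2.27 CPM per kb. Controls held 236.1, 249.5, 285.9 and 276.6 CPM, the BAF155 cKO 239.8, 243.1, 222.5 and 200.4, and those labelled Pax6 cKO 221.1, 197.9, 216 and 214.3. The BAF155 cKO overlapped the controls (log2 fold change -0.21, SE 0.09, adjusted p = 0.113) and the libraries labelled Pax6 cKO did not (-0.30, SE 0.09, adjusted p = 0.0147; 0.0554 without control 3 and 0.05, at the threshold, without control 4). Tjp1, the scaffold ZO-1, fell in the libraries labelled Pax6 cKO (-0.60, adjusted p = 0.0092; BAF155 cKO -0.37, adjusted p = 0.119). Plekha7, which binds p120-catenin at the junction, was not called in either (-0.14 and -0.17).

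**Figure D2:**
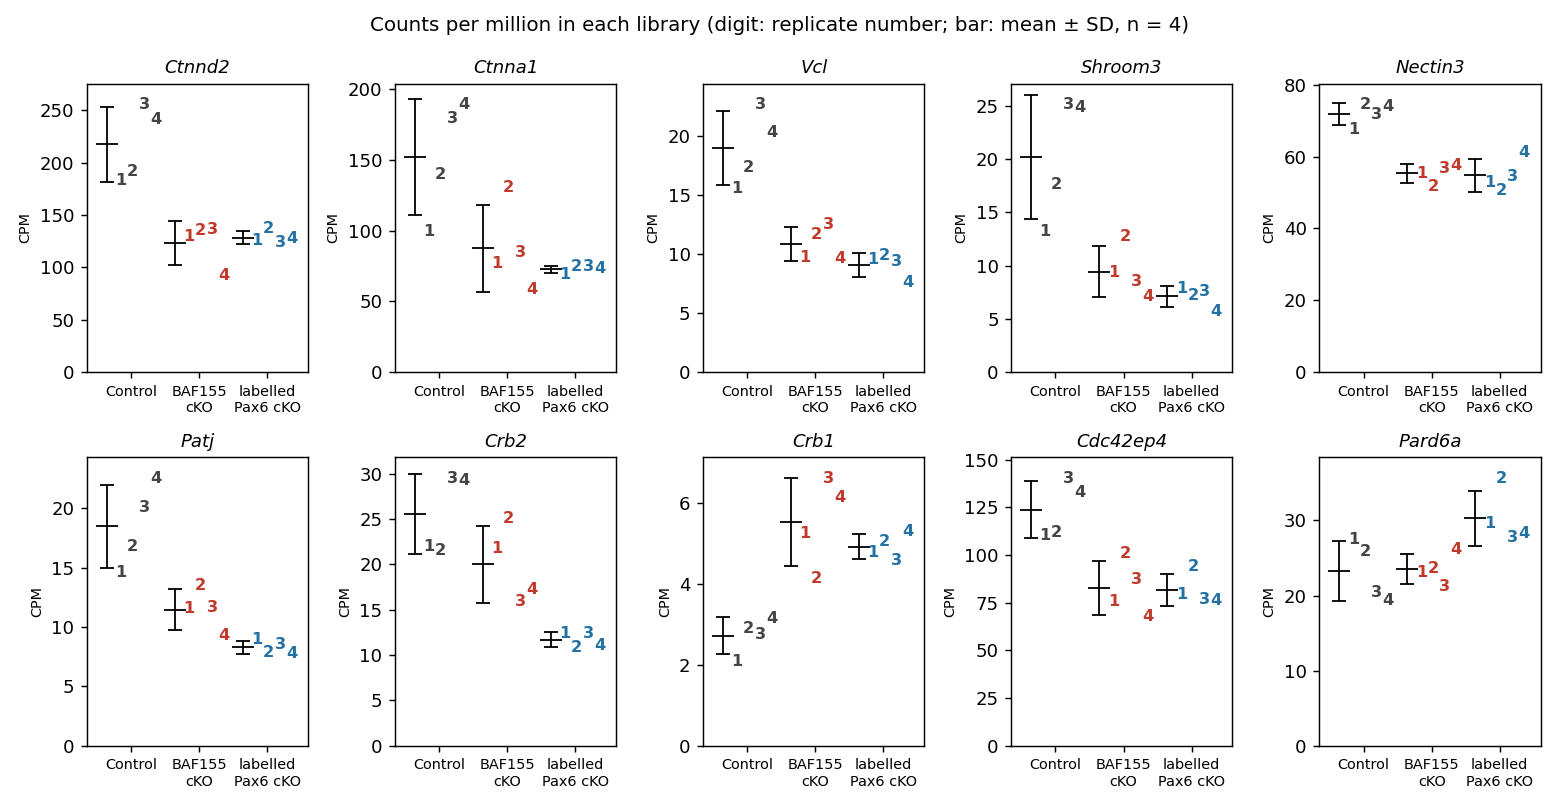
CPM (linear axes from 0) of 10 genes in each library, where each digit is a library placed at its value and the bars are the mean and SD of 4 libraries. Ctnnd2, Vcl, Shroom3, Nectin3, Patj and Cdc42ep4 lie below the controls in both knockout groups, Crb1 lies above them, and Ctnna1 and Crb2 overlap the controls in the BAF155 cKO.

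Of the 7 Par complex genes, 1 fell in the BAF155 cKO, and 5 fell and 1 rose in the libraries labelled Pax6 cKO. By comparison, 7.56% of all genes fell in the first, and 18.9% fell and 16.6% rose in the second. The 1 gene that rose is 14.3% of the family, close to the share of all genes. Pard6b and Pard6a encode versions of Par6, the adaptor that brings Cdc42 to atypical protein kinase C. Pard6b was 11.93, 13.36, 16.29 and 17.05 CPM in controls, 10.1, 11.81, 10.4 and 9.767 in the BAF155 cKO, and 9.148, 11.46, 7.864 and 8.253 in the libraries labelled Pax6 cKO. Both knockout groups lay just below the lowest control. The log2 fold changes were -0.47 (SE 0.14, adjusted p = 0.0395) and -0.67 (SE 0.14, adjusted p = 0.00285). The first call was lost without any 1 of these 5 libraries: control 3 or 4, or replicate 1, 3 or 4 of the BAF155 cKO (adjusted p up to 0.123).

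Pard6a went the other way. It was 27.4, 25.91, 20.4 and 19.39 CPM in controls, 23.06, 23.63, 21.25 and 26.11 in the BAF155 cKO, and 29.6, 35.55, 27.68 and 28.21 in the libraries labelled Pax6 cKO. The last group lay above all controls by a narrow margin, and the BAF155 cKO lay within them. The libraries labelled Pax6 cKO differed from control by a log2 value of 0.38 (SE 0.12, adjusted p = 0.0247) and the BAF155 cKO one of 0.01 (adjusted p = 0.954). The rise was no longer called without control 3, without control 4 or without replicate 2 of the libraries labelled Pax6 cKO (adjusted p up to 0.0891).

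Pard6g had the highest control level per length of the Par complex genes, 21 ± 1.59 CPM per kb. It was 59.23, 65.88, 70.3 and 69.36 CPM in controls, 49.04, 66.89, 60.06 and 51.26 in the BAF155 cKO, and 45.6, 58.14, 48.52 and 55.67 in the libraries labelled Pax6 cKO. Only the last group cleared the controls (log2 fold change -0.35, SE 0.11, adjusted p = 0.0214, but up to 0.0729 without single libraries; BAF155 cKO -0.22, adjusted p = 0.171). Per length, Pard6a made up 36.7 ± 6.01% of the summed Pard6a, Pard6b and Pard6g level in controls, 41.4 ± 4.39% in the BAF155 cKO and 49.9 ± 2.17% in the libraries labelled Pax6 cKO (SD, n = 4). This share was chosen after its values were seen and was not tested.

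Prkci, atypical protein kinase C of the iota type and the kinase of the apical Par complex, was 68.98, 73.69, 87.71 and 91.24 CPM in controls. It was 58.21, 77.17, 74.96 and 58.86 CPM in the BAF155 cKO and 62.34, 62.04, 61.72 and 66.06 in the libraries labelled Pax6 cKO. The BAF155 cKO libraries were mixed with the controls (log2 fold change -0.26, SE 0.11, adjusted p = 0.124). The other group was below them (-0.35, SE 0.11, adjusted p = 0.0226; up to 0.0832 without single libraries). The zeta kinase gene Prkcz was not called, at -0.04 and -0.01. Pard3, the scaffold that places the complex at junctions, and its relative Pard3b fell in the libraries labelled Pax6 cKO (log2 fold changes -0.66 and -0.94, adjusted p = 0.00536 and 0.00338). In the BAF155 cKO their values were -0.47 and -0.33 (adjusted p = 0.0578 and 0.258).

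The Crumbs complex, the most apical of these assemblies, held members that moved in opposite directions. Crb1 rose in both comparisons, while the scaffold genes Patj and Mpp5 fell in both and Crb2 fell in the libraries labelled Pax6 cKO. Crb1 and Crb2 encode transmembrane Crumbs proteins. Crb1 (ENSMUSG00000063681, chr1:139197056-139377100, minus strand) was 2.082, 2.889, 2.756 and 3.153 CPM in controls. It was 5.242, 4.14, 6.596 and 6.128 CPM in the BAF155 cKO and 4.768, 5.038, 4.572 and 5.283 in the libraries labelled Pax6 cKO. No control reached the lowest knockout library, and reads per library for this gene numbered 57 to 150. The log2 fold changes were 1.02 (SE 0.17, adjusted p = 0.00121) and 0.86 (SE 0.17, adjusted p = 0.00194).

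Crb2 (ENSMUSG00000035403, chr2:37776249-37799103, plus strand) was 21.95, 21.55, 29.44 and 29.28 CPM in controls, 21.78, 25.06, 15.92 and 17.24 in the BAF155 cKO, and 12.43, 10.85, 12.34 and 11.09 in the libraries labelled Pax6 cKO. The last group was below all other libraries, and BAF155 cKO replicates 1 and 2 lay among the controls. Relative to control, the BAF155 cKO differed by a log2 value of -0.34 (SE 0.15, adjusted p = 0.117), and the libraries labelled Pax6 cKO one of -1.13 (SE 0.15, adjusted p = 8.95e-05). The direct contrast put Crb2 1.72-fold higher in the BAF155 cKO than in the libraries labelled Pax6 cKO (log2 difference 0.78, SE 0.15, adjusted p = 0.00797). With only the 2 BAF155 cKO libraries of lane 3 the difference was 0.51 (adjusted p = 0.136).

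Per length, Crb1 was 4.75 ± 0.786% of the summed Crb1 and Crb2 level in controls, with 4.22, 5.86, 4.16 and 4.76% in replicates 1 to 4. It was 11.9 ± 4.05% in the BAF155 cKO and 16.4 ± 1.76% in the libraries labelled Pax6 cKO, so Crb2 stayed the more abundant of the pair in every library. This share too was chosen after its values were seen and was not tested.

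The 200 bases before the RefSeq starts of both genes are shown because the pair moved apart (GRCm38.p6; Crb1, chr1:139377077-139377276, minus strand, 45.5% GC; Crb2, chr2:37776049-37776248, plus strand, 70% GC). Capitals mark the 1 match to GGGCGG in Crb2. Crb1 held no match to that string, to the E-box string named for Ctnnd2, to the homeodomain core TAATTA (in 3.73% of all starts) or to the CArG box (1.18% of all starts). Of the 49 starts of the 31 genes found in the promoter table, 25 held the GC box string and 4 the E-box string, and 0 held the homeodomain core or the CArG box.
Crb1: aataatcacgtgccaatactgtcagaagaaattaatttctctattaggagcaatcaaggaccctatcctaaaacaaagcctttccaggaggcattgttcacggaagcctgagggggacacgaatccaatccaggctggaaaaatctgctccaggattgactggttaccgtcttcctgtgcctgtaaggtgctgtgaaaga
Crb2: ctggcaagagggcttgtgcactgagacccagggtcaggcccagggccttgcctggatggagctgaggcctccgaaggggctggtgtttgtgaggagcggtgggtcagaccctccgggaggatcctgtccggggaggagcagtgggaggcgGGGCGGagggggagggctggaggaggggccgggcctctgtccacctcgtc

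Patj, a scaffold with many PDZ domains that Mpp5 (also called PALS1) joins to Crumbs (ENSMUSG00000061859, chr4:98395785-98719603, plus strand), was 14.61, 16.81, 20.06 and 22.5 CPM in controls. It was 11.53, 13.49, 11.61 and 9.256 CPM in the BAF155 cKO and 8.936, 7.881, 8.565 and 7.816 in the libraries labelled Pax6 cKO. The groups did not overlap, with the libraries labelled Pax6 cKO lowest and the BAF155 cKO between them and the controls. The log2 fold changes were -0.68 (SE 0.14, adjusted p = 0.00571) and -1.15 (SE 0.14, adjusted p = 4.93e-05), and the direct difference of 0.47 was not called (adjusted p = 0.0736). Mpp5 fell by 0.43 and 0.57 on the log2 scale (adjusted p = 0.0416 and 0.00441). The first of these was lost without replicate 1, 3 or 4 of the BAF155 cKO, and without control 2, 3 or 4 (adjusted p up to 0.132).

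The Lin7 adaptors, which bind Mpp5, were not called. Lin7c, with the highest control level per length of the Crumbs family (73.4 ± 6.72 CPM per kb), was 306.5, 367.4, 306.3 and 346.4 CPM in controls. It was 280.5, 343.8, 354.5 and 314.8 CPM in the BAF155 cKO and 322.3, 341, 318 and 350.6 in the libraries labelled Pax6 cKO. The 3 groups overlapped throughout (log2 fold changes -0.04 and 0.01, adjusted p = 0.802 and 0.968). Lin7a had values of 0.22 and 0.31 (adjusted p = 0.262 and 0.0722).

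In the Scribble group, 0 of 4 fell in the BAF155 cKO, where 7.56% of all genes fell. In the libraries labelled Pax6 cKO 1 of 4 fell, against 18.9% of all genes. That gene was Llgl1, whose protein opposes the Par complex at the basolateral membrane and which had the highest control level per length of the group, 44 ± 7.28 CPM per kb. Controls held 178.8, 192.2, 257.6 and 226.4 CPM, the BAF155 cKO 183.8, 209.8, 159 and 147.6, and those labelled Pax6 cKO 147.1, 164.9, 148.8 and 137.2. BAF155 cKO replicates 1 and 2 lay among the controls (log2 fold change -0.29, SE 0.12, adjusted p = 0.125), and the other group lay below them (-0.52, SE 0.12, adjusted p = 0.00597). Scrib and Dlg1, the scaffolds of the group, had log2 fold changes between -0.11 and 0.05. Llgl2 was scarce, with 2 to 18 reads per library and 0.117 CPM per kb in controls, and was not called (-1.30 and -0.73, adjusted p = 0.0533 and 0.14).

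Among the GTPases and Cdc42 effectors, 2 of 6 fell in each comparison, where 7.56% and 18.9% of all genes fell. Cdc42ep4, a septin-binding Cdc42 effector (ENSMUSG00000041598, chr11:113726850-113751881, minus strand), was 110.3, 111.9, 140 and 132.9 CPM in controls. It was 75.64, 100.6, 87.01 and 67.99 CPM in the BAF155 cKO and 79.29, 94.05, 76.81 and 75.98 in the libraries labelled Pax6 cKO. All knockout libraries were below all controls. The log2 fold changes were -0.58 (SE 0.12, adjusted p = 0.00601) and -0.60 (SE 0.12, adjusted p = 0.00213).

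Cdc42ep1, of the same effector family, was 6.577, 6.725, 5.222 and 6.592 CPM in controls, 3.572, 4.783, 3.869 and 2.553 in the BAF155 cKO, and 5.828, 7.15, 5.181 and 4.934 in the libraries labelled Pax6 cKO. The BAF155 cKO lay below both other groups, which overlapped each other. It fell by 0.75 on the log2 scale in the BAF155 cKO (SE 0.18, adjusted p = 0.0138) and was not called in the libraries labelled Pax6 cKO (-0.12, adjusted p = 0.596). The direct difference of -0.63 was not called (adjusted p = 0.0598). Cdc42bpa, a Cdc42-bound kinase that acts on myosin, fell in the libraries labelled Pax6 cKO (-0.44, adjusted p = 0.0033; BAF155 cKO -0.13, adjusted p = 0.359).

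The GTPase genes themselves were not called. Cdc42, at 168 ± 15.9 CPM per kb in controls, was 515.3, 554.9, 444.9 and 479.5 CPM there, 429.7, 496.7, 550 and 505.7 in the BAF155 cKO and 509.5, 582.9, 535.4 and 619.2 in the libraries labelled Pax6 cKO. The groups overlapped (log2 fold changes -0.01 and 0.17, adjusted p = 0.957 and 0.198). Rac1 had log2 fold changes of -0.25 and -0.26, and Rhoa of -0.27 and -0.05.

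Numb and Numbl encode endocytic adaptors that oppose Notch and help keep cadherin at radial glial junctions. Numbl, at 9.44 ± 1.01 CPM per kb in controls, was 79.92, 72.46, 93.56 and 81.5 CPM there, 76.03, 64.85, 58.98 and 70.09 in the BAF155 cKO and 66.65, 67.11, 63.21 and 56.28 in the libraries labelled Pax6 cKO. The BAF155 cKO overlapped the controls through replicate 1 (log2 fold change -0.28, adjusted p = 0.0693). The libraries labelled Pax6 cKO were all lower (-0.37, SE 0.10, adjusted p = 0.00944). Numb was not called (-0.16 and -0.29, adjusted p = 0.347 and 0.0653).

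**Figure D3:**
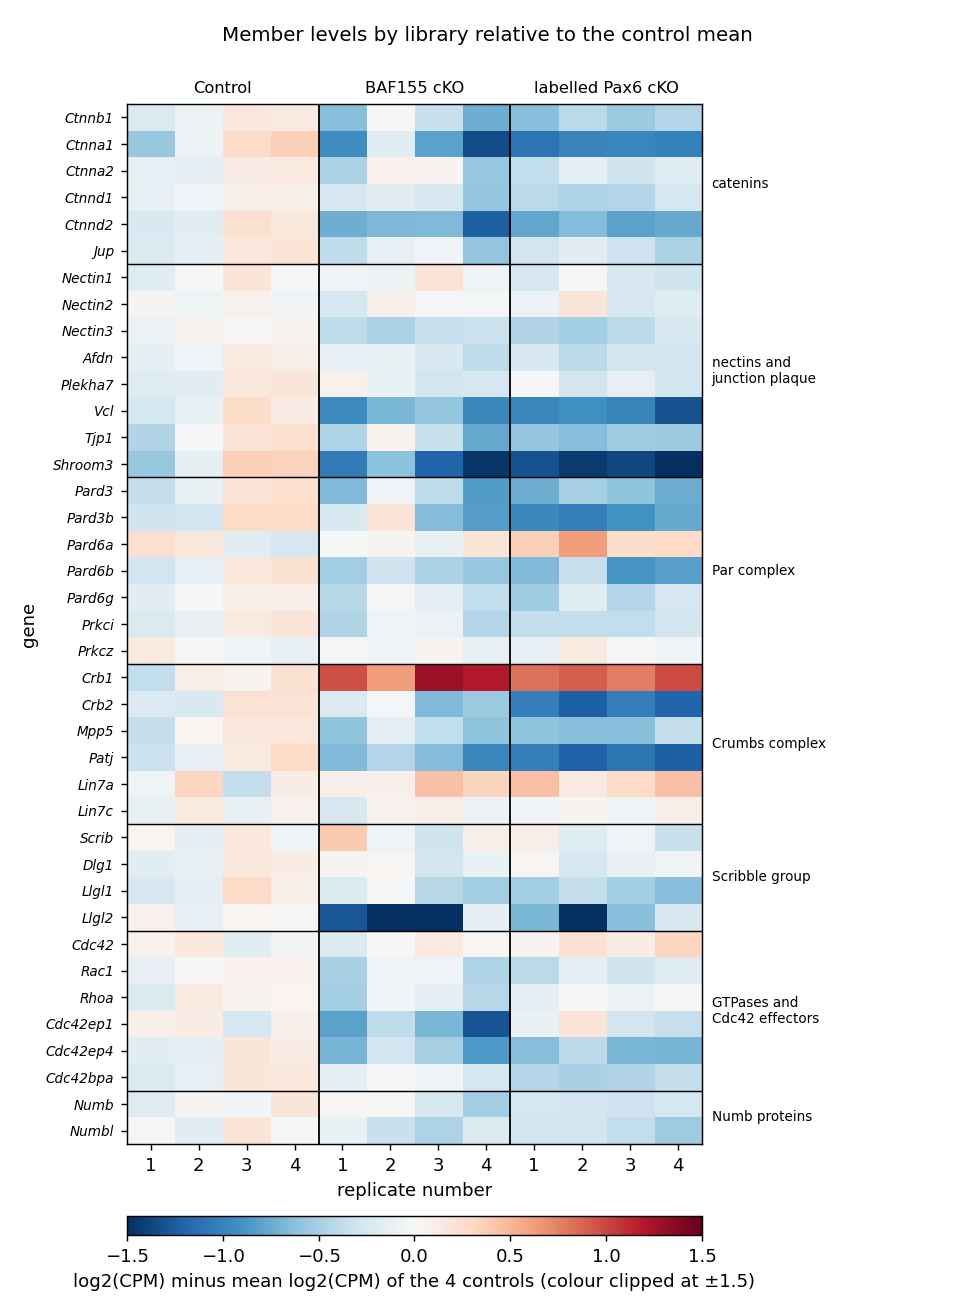
Each cell is the log2 CPM of 1 gene in 1 library minus the mean of the 4 controls (blue lower, red higher, colour ends at 1.5 either way), with genes in rows by family and libraries in columns by replicate. Control replicates 3 and 4 are redder than 1 and 2 for most genes, and BAF155 cKO replicate 2 is paler than replicate 4.

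Libraries of the same group differed in these genes. Both female controls lay above both male controls in 25 of the 39 genes (64.1%) and below both in 3 (7.69%), where the same held for 30.3% and 28.7% of 16467 genes. Among the BAF155 cKO libraries, replicate 2 was highest for 20 of the 39 (51.3%, against 25.1% of all genes tested) and replicate 4 lowest for 18 (46.2%, against 21.5%). The share of reads from mitochondrial genes was 1.205 and 1.382% in female controls 3 and 4, 2.274 and 2.176% in male controls 1 and 2, and 2.915, 1.571, 2.086 and 3.265% in BAF155 cKO replicates 1 to 4. In replicates 1 to 4 of those labelled Pax6 cKO it was 2.915, 2.038, 2.829 and 2.679%. It was thus lowest in the female controls and above 2% in 7 of the 8 knockout libraries. Its part in the result was not tested.

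Which controls were used moved the counts. Against only the 2 controls of its own sex, the BAF155 cKO (female) had 22 genes lower (14.5% of all genes tested), and the libraries labelled Pax6 cKO (male) had 6 (4.9% of all genes). Those 6 were Ctnnd2, Nectin3, Vcl, Shroom3, Crb2 and Patj, with log2 fold changes of -0.54, -0.38, -0.85, -1.11, -0.9 and -0.92. These 6 of the 21 were called under all 17 settings run for that comparison. The same-sex comparison is 1 of the 17, so no other gene could be, and this is not separate support. In the BAF155 cKO, the genes lower under all 19 settings were Ctnnd2, Nectin3 and Vcl. The setting with lane 1 only is among the 19 and called only these 3. Crb1 was higher under every setting in both comparisons. No called gene changed its sign. With only the BAF155 cKO libraries of lane 1, 3 of the 39 were lower than control (2.47% of all genes), and with only those of lane 3, 16 were (7.11%). Without BAF155 cKO replicate 2 the number was 21 (12.6% of all genes), and without control 1 it was 16 (11.2%).

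Exon length moved with the change as well. The 39 genes have 1582 to 21522 bases of exon, and 17 of them are in the longest of 5 equal bins of all genes tested (7270 bases or more). In that bin the median log2 fold change of all genes was -0.08 in the BAF155 cKO and -0.16 in the libraries labelled Pax6 cKO, with 11.9% and 37.4% of genes lower. The 17 had medians of -0.33 and -0.44, with 6 and 13 lower. In the shortest bin the median of all genes was 0.17 and 0.28, and the only gene of the 39 there was Pard6a. After each library's trends on length and GC content were removed, 10 of the 39 were lower and 1 higher in the BAF155 cKO, with 7.7% of all genes lower. In the libraries labelled Pax6 cKO, 18 were lower and 1 higher, with 15.8% of all genes lower, and Pard6a, Pard3, Afdn, Numbl and Cdc42bpa were no longer called.

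**Figure D4:**
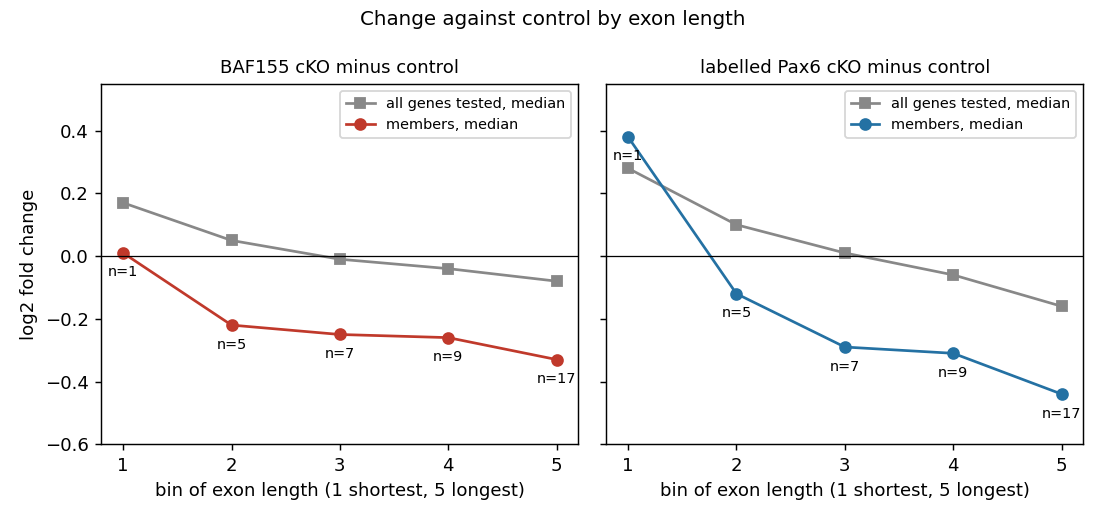
Median log2 fold change against control in 5 equal bins of exon length (1 shortest, 5 longest), for all genes tested (grey squares) and for the 39 genes (coloured circles, with their number), in the BAF155 cKO (left) and the libraries labelled Pax6 cKO (right). Both medians fall with length, and the 39 lie below all genes in every bin but the shortest one of the right panel, which holds only Pard6a.

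Another 98 junction and polarity genes, such as claudins, ezrin-family and angiomotin genes, were read beside the 39, of which Ctnna3 had too few counts to be tested. Of the 97 tested, 19 fell in the BAF155 cKO (19.6%) and 0 rose, where 7.56% of all genes fell and 6.04% rose. At an unadjusted p under 0.05, 41 were lower and 4 higher in the BAF155 cKO. In the libraries labelled Pax6 cKO 53 were lower and 8 higher at that threshold. The share of all genes at that unadjusted threshold is not given here, so these counts are descriptions only. In the BAF155 cKO DESeq2 called 25 lower and 1 higher, where it called 9.29% of all genes lower and 8.36% higher. In the libraries labelled Pax6 cKO 44 fell (45.4%) and 3 rose (3.09%), where 18.9% of all genes fell and 16.6% rose. Median log2 fold changes were -0.198 and -0.241. This list too was chosen with earlier results of these data known. Cldn3, a tight junction claudin, was 5.665 CPM in controls, 1.773 in the BAF155 cKO and 1.768 in the libraries labelled Pax6 cKO (log2 fold changes -1.66 and -1.67, adjusted p = 0.000104 and 4.55e-05). Frmd4a, a scaffold that joins Par3 to the Arf6 exchange factor, was 335.7, 226.1 and 189.6 CPM (-0.57 and -0.82, adjusted p = 0.000893 and 1.9e-05).

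Ezr, ezrin, which ties membrane proteins to actin at apical surfaces, fell from 227.4 to 104.8 CPM in the BAF155 cKO (log2 fold change -1.12, adjusted p = 0.00124) and to 116.4 CPM in the libraries labelled Pax6 cKO (-0.97, adjusted p = 0.00172). Wwc1, the scaffold KIBRA, fell from 144.4 to 61.5 CPM in the libraries labelled Pax6 cKO (-1.23, adjusted p = 0.000125) and to 95.74 CPM in the BAF155 cKO (-0.59, adjusted p = 0.0302). The genes that rose in the libraries labelled Pax6 cKO were Rnd3, a small GTPase gene (0.51, adjusted p = 0.0101), and the tight junction genes Ocln (0.55, adjusted p = 0.0193) and Cldn5 (0.47, adjusted p = 0.0208). Cldn5 and Ocln are prominent in endothelium. Its 7 markers summed to 128.7 to 158.3 CPM in controls and 145.2 to 166.4 in those labelled Pax6 cKO. Of the 7, 2 were called higher, where 16.6% of all genes rose. Cldn5 is itself among the 7 and among the 2, so this list is not separate from it. Alone Cldn5 was 32.1 CPM in controls and 44.66 in the libraries labelled Pax6 cKO. The part of endothelial cells in the result was not tested. In the direct contrast Cldn5 and Ocln were lower in the BAF155 cKO than in the libraries labelled Pax6 cKO (-0.65 and -0.64, adjusted p = 0.023 and 0.0434), and Frmd4b, Wwc1 and Dlg5 were higher (0.6, 0.64 and 0.35, adjusted p = 0.03, 0.0415 and 0.0419). Sex and knockout cannot be told apart for these genes either.

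Markers of the cell types in the cortex moved in the same comparisons. Of all genes tested, 7.56% were lower and 6.04% higher in the BAF155 cKO. In the libraries labelled Pax6 cKO, 18.9% were lower and 16.6% higher. With so few genes per list, the counts of markers called are descriptions only. The 10 radial glial markers summed to 2431 to 2628 CPM in controls, 2148 to 2484 in the BAF155 cKO and 2499 to 2723 in those labelled Pax6 cKO. Pax6 is among these 10. Alone it was 110.2 CPM in controls, 314.1 in the BAF155 cKO and 388.8 in the libraries labelled Pax6 cKO. The median sums were 2613, 2242 and 2617 CPM in the same order and did not rise as Pax6 did. By these medians the other radial glial markers together were lower in both knockout groups than in controls. This difference was not tested. Among the 10, 5 markers were called lower and 1 higher in the BAF155 cKO. In the libraries labelled Pax6 cKO 6 were lower and 2 higher, with Pax6 among the higher in both comparisons. The 6 markers of basal progenitors summed to 486.2 to 790.2, 276.2 to 426.6 and 256.4 to 283.3 CPM, with 3 and 5 called lower. The 9 markers of cortical neurons summed to 8509 to 9581, 6182 to 8133 and 6873 to 8085 CPM, with 4 and 6 called lower and 0 and 1 higher. The 7 markers of ventral or GABAergic cells summed to 523.9 to 753.6, 1023 to 1186 and 1235 to 1343 CPM, with 5 and 6 called higher. The 6 choroid plexus markers ranged from 17.52 to 36.16 CPM in controls and from 26.21 to 330.6 in those labelled Pax6 cKO. The 7 endothelial markers summed to 103.4 to 167 CPM in the BAF155 cKO and the choroid plexus markers to 7.801 to 21.19. Sums in controls, the BAF155 cKO and the libraries labelled Pax6 cKO were 200.1 to 240.3, 184.6 to 247.3 and 233.3 to 257.3 CPM for pericytes, and 23.64 to 34.15, 36.42 to 45.65 and 29.63 to 33.31 CPM for meninges. They were 48.49 to 57.26, 32.62 to 48.07 and 45.17 to 52.45 CPM for microglia, and 262.3 to 369.3, 327.4 to 651.7 and 496 to 555 CPM for erythroid cells. Of 5 meningeal markers tested, 2 were called higher in the BAF155 cKO and 1 in the libraries labelled Pax6 cKO. In the same order, 0 and 2 of 5 pericyte markers and 1 and 2 of 6 erythroid markers were higher. Of 5 choroid plexus markers tested, 0 and 1 were higher. Called lower were 0 and 1 pericyte markers and 2 and 1 of 6 microglial markers. No marker of these lists was at 0 in all libraries of a group, and the part of any of these lists in the changes of the 39 genes was not tested.

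The libraries do not mark strand by their kit, so reads of overlapping genes on opposite strands cannot be told apart. Exons of 14 of the 39 overlap a gene on the other strand, among them Vcl with Ap3m1, Ctnna1 with Lrrtm2, Shroom3 with 4932430I15Rik, Crb2 with Dennd1a and Ctnnb1 with Ulk4, and those of 3 overlap a gene on the same strand. Ctnnd2, Nectin3, Patj, Crb1 and Cdc42ep4 have no such overlap.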

How the data were processed

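RNA was isolated with a Qiagen kit and libraries were made with the Illumina TruSeq v2 kit, which does not mark strand, per the labels' protocols. The authors deposited raw read counts per Ensembl gene for each of the 12 libraries; per the submitters' processing notes the genome was mm10, while aligner, counter and annotation were not given in the sources used here. Of 48709 identifiers, 48349 matched GENCODE M21 (at most 0.0397% of a library's reads lay on the rest). The highest and lowest depths, 32047949 and 15155249 reads, limit precision mainly for genes with few reads.

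Counts of all 12 libraries were fitted with edgeR 4.0.16 (R 4.3.3; filterByExpr, TMM, quasi-likelihood test with 1 coefficient per group and no covariate), with Benjamini-Hochberg adjustment over 16511 genes and a threshold of 0.05. CPM use TMM library sizes, and levels per kb divide by the summed exon length. DESeq2 1.42.0 was an alternative. The script was tested on simulated counts. Replicate pairs of a group differed by more than sampling noise (chi-square per gene 3.09 to 50.2). Alternatives added after seeing the data removed length and GC trends or used only 2 of the controls. Promoter letters were taken from the RefSeq table, of which 31 of the 39 genes had an entry.

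The 39 genes and the gene lists were chosen with earlier results of these data known. Values in every library are given for called genes whose knockout libraries all lay on 1 side of the controls (at most 8 of smallest adjusted p per direction and comparison), for called genes of the direct contrast, for the gene of highest control level per kb in each family, and for Crb1, Ctnnd2, Cdc42ep4, Prkci and Afdn. Of the other 98 genes, the 3 called ones of smallest adjusted p per direction and comparison are named. Genes named for other reasons were chosen after their values were seen.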

Additional observations from a re-analysis of the deposited data

Results flagged for a closer look

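In 117 groups of 4 libraries (39 genes in 3 groups), 5 had a library whose gap to the nearest of the others, divided by the range, passed Dixon's critical value of 0.829; chance alone gives about 1 in 20 groups. Ctnnd2 in BAF155 cKO replicate 4 was 91.8 CPM, where the others were 129 to 136. Nectin1 in BAF155 cKO replicate 3 was 44.9 CPM, where the others were 36.8 to 37.6. In replicate 4 of the libraries labelled Pax6 cKO, Prkci was 66.1 CPM against 61.7 to 62.3 and Mpp5 was 33.7 CPM against 27.6 to 28.3. Cdc42ep1 in control replicate 3 was 5.22 CPM, where the other controls were 6.58 to 6.72.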

How the results depend on the processing

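Among the 39 genes, the number lower in the BAF155 cKO (10) was 22 against same-sex controls, 4 with only control replicates 1 and 2, 3 with only the BAF155 cKO libraries of lane 1, 16 with only those of lane 3, and 7 to 21 without single libraries (21 without BAF155 cKO replicate 2). The share of all genes lower, 7.56%, moved to 14.5, 3.54, 2.47, 7.11 and 3.91 to 12.6% in the same order. In the libraries labelled Pax6 cKO, the number lower (21) was 6 against same-sex controls and 26 with only control replicates 3 and 4. It was 25 with only the 8 libraries compared and 18 to 25 without single libraries. The share of all genes lower, 18.9%, was 4.9, 23.2, 22.2 and 12.4 to 22.2% in the same order. The number higher there (2) was 1 against same-sex controls and 1 with length and GC trends removed. It was 3 with only control replicates 3 and 4, and 1 to 3 without single libraries. In the direct contrast, the number lower (0) was 1 with DESeq2, 1 without the filter on low counts, 1 with the replicate block and 0 to 1 without single libraries. The number higher (1) was 3 with DESeq2, 3 with only the 8 libraries compared, 2 for lane 1, 0 for lane 3 and 1 to 3 without single libraries. For the number higher in the libraries labelled Pax6 cKO, the share of all genes, 16.6%, was 3.07, 12.6, 18.1 and 10.3 to 17.5% in the order given. In the direct contrast the share lower, 2.01%, was 3.71, 1.09, 1.5 and 0.86 to 2.19%. The share higher, 2.3%, was 4.35, 3.35, 1.78, 0.841 and 0.949 to 2.5%. The cause of these shifts was not tested. RLE size factors left all 117 single-gene results on their side of the threshold.

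Of the other 97 genes, the number lower in the BAF155 cKO (19) was 43 against same-sex controls, 9 with only the 8 libraries, 6 for lane 1, 4 with controls 1 and 2, and 8 to 33 without single libraries, and the number higher (0) was 0 to 2 over the settings run. For the libraries labelled Pax6 cKO the 44 became 15 against same-sex controls and 29 to 53 without single libraries. The number higher there (3) was 0 to 8 over the settings run. The share of all genes moved too. In the BAF155 cKO the share lower, 7.56%, was 14.5, 4.14, 2.47, 3.54 and 3.91 to 12.6% in the same order. The share higher, 6.04%, was 1.5 to 11.8% over the settings run. In the libraries labelled Pax6 cKO the share lower, 18.9%, was 4.9% and 12.4 to 22.2%. The share higher there, 16.6%, was 3.07 to 19.1%.

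Samples share only replicate numbers: correlations of same-numbered deviations ran from -0.343 to 0.504, and at most 4 of 8 samples correlated best with their own number. With the replicate block, 13 genes were lower in the BAF155 cKO (7.23% of all genes) and 22 in the libraries labelled Pax6 cKO (17.8%). Depth limits Llgl2 most, at 2 to 18 reads; the other 38 genes had at least 40 reads in every library.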
